A study of Mus musculus with 7 samples.

Results

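The genes described here encode collagens, laminin chains, other proteins of the basement membrane and the integrin subunits that bind them. They were chosen by the gene symbol of the array's probe table: collagen chains (Col, a number, a, a number), laminin chains (Lama, Lamb or Lamc), 8 named glycoproteins such as Nid1, Hspg2 and Sparc, and integrins Itga or Itgb with a number. Of 16593 genes on the array, 68 carried such a symbol, and 35 of these were kept because at least 1 probe lay above background (detection p under 0.01) on at least 1 of 7 arrays. They stand among 9213 genes kept in all. Fn1, Fbn1, Lama3 and Lama5 were not analysed here. Total RNA of 6 mouse epiblast stem cell (EpiSC) lines and of R1, an embryonic stem cell (ESC) line, was measured on Illumina bead arrays. The EpiSC lines are called C1a1, E3, E5, OG2.1, OG2.2 and T9. Every line gave a single array, so the 6 EpiSC lines served as replicates of their cell type and R1 stood alone. The labels name no genotype beyond the line names, no treatment and no culture condition, and the lines' separate origin is not described. The p-values therefore measure the spread between the EpiSC arrays, which may in part be technical. R1, a single array, adds nothing to that spread and is assumed to vary like the EpiSC lines.

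Basement membranes are thin matrix sheets beneath epithelia. Laminins, heterotrimers of an alpha, a beta and a gamma chain, and collagen IV form separate networks, which nidogens and perlecan link, and integrins, pairs of an alpha and a beta subunit, tie the sheet to the cytoskeleton. In the early mouse embryo, the epiblast rests on such a membrane, and its assembly accompanies the formation of a polarised epithelium around implantation. Fibrillar collagens, by contrast, are mainly products of mesenchymal and cartilage cells.

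Promoter windows are shown for the genes on which the results below turn. They are 300 bases long, lie mostly upstream of the annotated start and come from RefSeq (GRCm38.p6), which held a window for 26 of the 35 genes. Col4a1 and Col4a2 are shown because they are transcribed away from each other from 1 place on chromosome 8. Nid1, Itga5 and Col16a1 are shown because they differed most between the cell types among genes with a window, and Vtn because it varied most between EpiSC lines. Capitals mark 3 motifs found on either strand. They are GGGCGG, known from Sp1 binding, the core promoter motif TATAAA, and the sequence CCAAT, known from NF-Y binding.
Col4a1 (chr8:11312777-11313076, minus strand): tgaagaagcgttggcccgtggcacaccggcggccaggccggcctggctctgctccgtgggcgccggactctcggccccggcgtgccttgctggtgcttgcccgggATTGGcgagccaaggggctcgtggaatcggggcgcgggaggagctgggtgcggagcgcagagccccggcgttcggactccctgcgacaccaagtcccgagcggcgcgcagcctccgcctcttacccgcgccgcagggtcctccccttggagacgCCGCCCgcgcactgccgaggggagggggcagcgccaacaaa
Col4a2 (chr8:11312555-11312854, plus strand): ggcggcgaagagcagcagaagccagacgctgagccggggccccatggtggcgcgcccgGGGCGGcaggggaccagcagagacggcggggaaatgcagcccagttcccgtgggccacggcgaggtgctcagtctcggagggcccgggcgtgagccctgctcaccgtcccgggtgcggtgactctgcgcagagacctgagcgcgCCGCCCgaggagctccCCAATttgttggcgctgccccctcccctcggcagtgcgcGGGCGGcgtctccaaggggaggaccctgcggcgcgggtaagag
Nid1 (chr13:13437352-13437651, plus strand): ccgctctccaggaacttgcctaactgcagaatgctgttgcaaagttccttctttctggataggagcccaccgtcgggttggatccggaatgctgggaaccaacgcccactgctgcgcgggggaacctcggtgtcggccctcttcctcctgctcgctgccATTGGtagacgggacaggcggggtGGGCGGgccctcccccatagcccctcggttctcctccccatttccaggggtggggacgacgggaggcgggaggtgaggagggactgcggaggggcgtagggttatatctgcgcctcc
Itga5 (chr15:103366742-103367041, minus strand): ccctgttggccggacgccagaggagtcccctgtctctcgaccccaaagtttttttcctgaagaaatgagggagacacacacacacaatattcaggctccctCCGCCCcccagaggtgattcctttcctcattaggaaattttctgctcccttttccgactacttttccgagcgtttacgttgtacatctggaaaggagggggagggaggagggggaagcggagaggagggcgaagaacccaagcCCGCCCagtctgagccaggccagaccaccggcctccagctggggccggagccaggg
Col16a1 (chr4:130047590-130047889, plus strand): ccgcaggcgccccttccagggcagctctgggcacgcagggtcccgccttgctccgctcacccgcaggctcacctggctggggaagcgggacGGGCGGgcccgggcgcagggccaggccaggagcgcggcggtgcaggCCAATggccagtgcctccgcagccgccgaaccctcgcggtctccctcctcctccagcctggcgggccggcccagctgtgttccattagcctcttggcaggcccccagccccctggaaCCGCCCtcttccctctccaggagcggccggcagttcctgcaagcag
Vtn (chr11:78498870-78499169, plus strand): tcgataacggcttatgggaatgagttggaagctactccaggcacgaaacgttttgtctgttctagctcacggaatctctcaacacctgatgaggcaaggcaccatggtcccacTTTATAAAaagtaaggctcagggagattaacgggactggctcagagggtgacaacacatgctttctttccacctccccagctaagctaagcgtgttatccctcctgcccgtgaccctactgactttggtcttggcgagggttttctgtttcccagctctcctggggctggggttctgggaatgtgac
The Col4a1 and Col4a2 windows overlapped by 78 bases, with annotated starts 21 bases apart, so 1 GGGCGG match lies in the stretch that both windows share. Each window held a CCAAT motif of its own. In Vtn, the capitals cover 2 overlapping TATAAA matches, 1 on each strand. Over all 32851 windows of this length, 35.7% held GGGCGG, 13.6% held TATAAA and 37.4% held CCAAT. Among the 30 windows of the genes described here, 19 held GGGCGG (63.3%), 2 held TATAAA (6.67%) and 11 held CCAAT (36.7%). These matches describe the sequence and say nothing of which factors bind there.

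All levels below are log2 intensities after background correction and quantile normalization, and levels of different genes are not set against each other, since probes differ in brightness. Between 7391 (E5) and 8058 (C1a1) of the 9213 genes were above background per array. Of the 35 genes, 20 were above it in E5, 22 in R1, 23 in E3, 26 in OG2.1, 27 in OG2.2, 28 in T9 and 30 in C1a1. Above background on every array were 19 of them. The labelled cell types were borne out by the naive ESC markers and by part of the EpiSC markers. All 6 tested naive ESC markers, Zfp42 and Esrrb among them, were above background in R1, with a summed linear level of 47420 against 202.7 to 322.2 in the EpiSC lines. All 6 EpiSC markers were above background in every EpiSC line, and 5 of them in R1. Fgf5 ran from 9.60 to 10.80 in the EpiSC lines and was below background in R1. Cldn6, Dnmt3b and Otx2 were higher in every EpiSC line than in R1 (differences 5.15, 2.49 and 1.15). Pou5f1 in R1 (13.42) lay within the EpiSC range (12.69 to 14.12), and Sox2 was highest in R1 (9.67).

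EpiSCs were first compared with R1 in their matrix and adhesion transcripts. The EpiSC lines had less transcript of the laminin alpha chain Lama1, the laminin gamma chain Lamc1 and the linker Nid1, and of the integrin subunits Itga5 and Itgb7 and the collagen Col9a2. They had more of the collagens Col16a1 and Col7a1 and of the integrin subunits Itga3 and Itgb5. These 10 passed limma's test over all genes at an adjusted p under 0.05 (Benjamini-Hochberg). The 6 lower genes made up 17.1% of the 35, where 8.11% of all genes tested were lower in EpiSCs. The 4 higher genes made up 11.4%, where 7.1% of all genes were higher. In either direction the shares were 28.6% and 15.2%. The median difference, EpiSC minus R1, was 0.38 over the 35 genes and 0.05 over all genes. It was 0 with the 13 genes below background in R1 set at their lower bound, or at 0 where the bound was under 1-fold. Those 13 were kept only through EpiSC arrays, and no gene was kept only through R1, so the counts of positive (20) and negative (15) differences lean towards EpiSCs by construction. R1 lay above all 6 EpiSC lines for 11 genes (31.4%, against 26.1% of all genes) and below all 6 for 13 (37.1%, against 29.7%). The latter count leans the same way, since it includes genes kept only through EpiSC arrays, such as Lamb3, Vtn and Col16a1. Col16a1 is also 1 of the 4 higher genes. With R1 the single ESC line, effects of cell type, line, culture and array cannot be told apart.

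**Figure D1:**
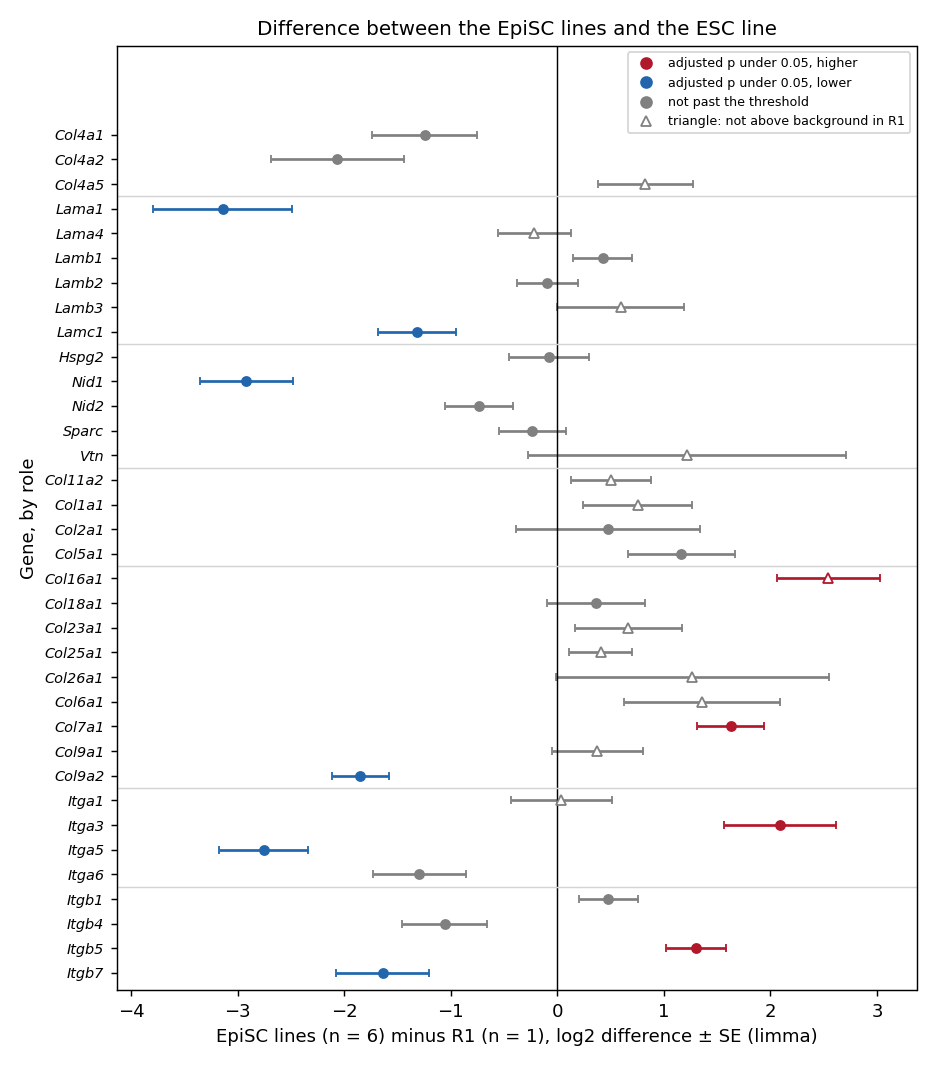
EpiSC minus ESC difference on the log2 scale for each of the 35 genes, grouped by role (points, fitted difference over 6 EpiSC lines and 1 ESC line; bars, SE from limma; triangles, genes not above background in R1). Lama1, Nid1 and Itga5 lie farthest to the left (-3.14, -2.92 and -2.75), and Col16a1 farthest to the right (2.54).

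Among the basement membrane networks, Lama1 stood farthest from R1. Lama1 encodes the laminin alpha chain of the embryo's first basement membranes. Its level was 7.61 in OG2.1, 7.07 in OG2.2, 6.45 in C1a1, 6.15 in E3, 5.91 in E5 and 5.71 in T9, and 9.62 in R1. Every EpiSC line lay below R1, and the lines did not overlap with it. The difference of -3.14 (SE 0.65; EpiSC mean 6.48 ± 0.73, SD, n = 6) passed limma's test (adjusted p = 0.0151). Lamc1, the gamma chain shared by most laminins, ran from 9.93 (OG2.1) to 10.82 (T9) with a mean of 10.32 ± 0.36 (SD, n = 6), against 11.64 in R1. It was lower by -1.32 (SE 0.37, adjusted p = 0.0472 by limma), close to the threshold, and the call was lost in 7 of 13 alternative settings, including the deposited log2 values and the removal of OG2.1, OG2.2, E3, E5 or C1a1 (adjusted p up to 0.0757).

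The other laminin chains did not pass. Lamb1, the beta chain that joins Lama1 and Lamc1 in the trimer, was at 6.22 to 6.78 in the EpiSC lines and 6.09 in R1, a difference of 0.42 (SE 0.28, adjusted p = 0.366 by limma), with all 6 lines above R1. Lamb2, an alternative beta chain, had 3 EpiSC lines above and 3 below R1 (difference -0.09, SE 0.29). Differences between chains were not tested. Lama4, the alpha chain of vessel and muscle laminins in the adult, and Lamb3, a chain of the epidermal laminin, were above background in T9 alone. Lama2 and Lamc3 were above background on no array.

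Collagen IV, the network collagen of all basement membranes, followed a similar order of lines for its major chains. Col4a1 was at 10.56 in R1, 10.21 in OG2.1, 9.61 in T9, 9.32 in C1a1, 9.003 in E3, 8.95 in OG2.2 and 8.79 in E5. Col4a2 was at 9.26 in R1, 8.35 in OG2.1, 7.67 in T9, 6.94 in both C1a1 and OG2.2, 6.83 in E5 and 6.45 in E3. For both genes R1 was the highest array, OG2.1 the next and T9 the next after that, and the lower lines differed little. Their promoter windows are those printed above. Neither passed limma's test over 6 lines (Col4a1 -1.24, SE 0.49, adjusted p = 0.136; Col4a2 -2.06, SE 0.62, adjusted p = 0.0617). Without OG2.1 both did, at -1.42 (adjusted p = 0.0373) and -2.296 (adjusted p = 0.0138), and Col4a2 also did without background correction. Col4a5, an X-linked minor chain, was below background in E5, T9 and R1 and above it in the other 4 lines (difference 0.83, SE 0.44, adjusted p = 0.267). Col4a3, Col4a4 and Col4a6 were above background on no array.

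The linkers divided in the same comparison. Nid1, nidogen-1, which bridges the laminin and collagen IV networks, was at 8.33 in R1, at 6.17 in OG2.1, 5.63 in OG2.2 and 5.55 in C1a1, and below background in E3, E5 and T9. No EpiSC line came near R1, and the raw signal of 413.1 in R1 compared with 121.4 to 167.0 in the EpiSC lines. The difference was -2.92 (SE 0.44, adjusted p = 0.00376 by limma). Nid2, the second nidogen, was also highest in R1 (10.71, EpiSC 9.61 to 10.29), but its difference of -0.74 (SE 0.32) did not pass (adjusted p = 0.168). Hspg2, the core protein of perlecan, had R1 (9.95) within the range of the lines (9.31 to 10.34), at a difference of -0.08 (SE 0.38). Sparc, a collagen-binding glycoprotein abundant in parietal endoderm, was at 10.42 to 11.20 in EpiSCs and 11.01 in R1 (difference -0.24, SE 0.32, adjusted p = 0.668).

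Markers of extraembryonic endoderm, a heavy producer of these components, had their highest summed level in R1. Of 8 tested endoderm markers outside the gene set, 6 were above background in R1, with a summed linear level of 1768, against 2 to 6 and 307.0 to 1529 in the EpiSC lines. Gata6, Dab2 and Amn were highest in R1 (9.24, 9.35 and 7.62), and Sox7 (6.91) and Ttr (5.89) were above background in R1 alone. Other members went the other way. Sox17 was at 6.28 in R1 and 7.48 to 8.60 in OG2.1, E3, T9 and C1a1, Foxa2 was below background in R1 and above it in those 4 lines, and Pth1r was above background in OG2.1 and C1a1 alone. Gata4, Plat, Thbd and Afp of the same marker list were above background on no array. The part of these markers in the R1 levels of Lama1, Nid1 and collagen IV was not tested. In bulk RNA, more cells of a type and more transcript per cell cannot be told apart.

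**Figure D2:**
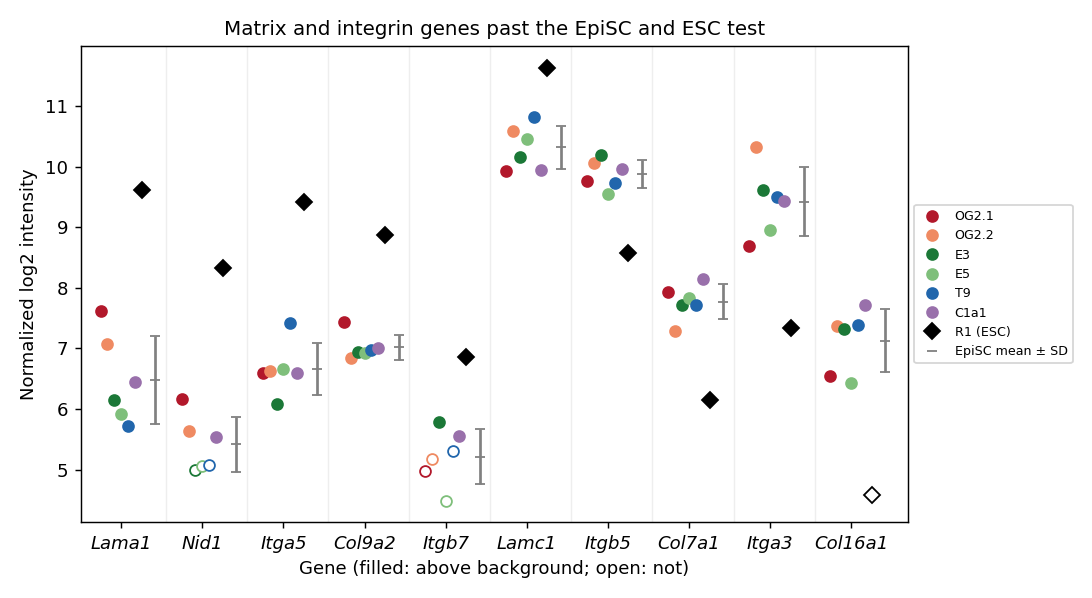
Normalized log2 intensity of the 10 genes past the EpiSC and ESC test, a point for each line (circles, EpiSC lines; diamond, R1; open symbols, not above background; bars, EpiSC mean ± SD, n = 6). R1 stands apart from all 6 EpiSC lines for each gene, above them for the left 6 genes and below them for the right 4.

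Collagens outside collagen IV gave 2 of the 4 increases. Col16a1, a fibril-associated collagen, was at 6.43 (E5), 6.55 (OG2.1), 7.32 (E3), 7.38 in OG2.2 and T9 and 7.72 (C1a1). It was below background in R1, so the EpiSC level was at least 2.70-fold higher (fitted difference 2.54, SE 0.48, adjusted p = 0.0105 by limma). Every EpiSC line was above background and above R1. Col7a1, the chain of the anchoring fibrils that fasten epidermal basement membrane to the dermis, ran from 7.29 (OG2.2) to 8.14 (C1a1), median 7.78, against 6.14 in R1. It was higher by 1.63 (SE 0.32, adjusted p = 0.0113 by limma). Col9a2, a chain of the cartilage collagen IX, went the other way, at 6.84 to 7.43 in EpiSCs and 8.87 in R1 (difference -1.85, SE 0.27, adjusted p = 0.00325 by limma). These 3 calls held in all 13 alternative settings, although the size for Col16a1 ranged from 1.00 without background correction to 4.12 with the deposited values.

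The remaining members of that role did not pass. Col18a1, whose C-terminal fragment is endostatin, was above background on every array (11.18 to 12.65 in EpiSCs, 11.54 in R1). Its used probe gave a difference of 0.36 (SE 0.46), and its other 2 kept probes gave 0.74 and -0.0048, which do not share a sign. Col6a1 (1.36, SE 0.73) and Col26a1 (1.27, SE 1.28) were below background in R1 and in E3, E5 and T9, and are taken up with the lines. Col23a1, Col25a1 and Col9a1 were each detected in 2 lines, never in R1. Of the 13 genes below background in R1, 2 had a bound above 1-fold, Col16a1 and Col26a1 (1.11-fold). The Col26a1 bound rests on 3 detected lines and counts E3, E5 and T9 at their unresolved levels. E3 (4.55) and E5 (4.40) lay below R1 (4.58), so this bound does not set the cell types apart. For the other 11 genes the arrays did not resolve a difference.

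Among fibrillar collagens, Col2a1 and Col5a1 were above background on every array. Of 11 on the array, 4 were kept, and 0 passed limma's test, with 1 at an unadjusted p under 0.05. Col5a1, the regulatory chain of collagen V, was at 7.19 to 8.85 in EpiSCs and 6.88 in R1 (1.16, SE 0.50, adjusted p = 0.169), with all 6 lines above R1. Col2a1, the main cartilage collagen, was at 6.95 in R1, inside the EpiSC range (0.48, SE 0.86). Col1a1, the chain most typical of fibroblasts, was above background in OG2.2 (5.99) and T9 (5.62) alone, and Col11a2 in T9 (5.64) and C1a1 (5.60) alone. Col1a2 and Col3a1, the other major fibroblast collagens, were above background on no array.

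Integrin subunits split between the cell types. Itga5, which pairs with Itgb1 as a fibronectin receptor, was at 6.08 (E3), 6.60 in OG2.1 and C1a1, 6.62 (OG2.2), 6.67 (E5) and 7.42 (T9), and 9.42 in R1. All lines lay below R1, and the fitted difference was -2.75 (SE 0.42, adjusted p = 0.00397 by limma). Its second kept probe gave -2.41. Itga3, which pairs with Itgb1 as a laminin receptor, was at 8.70 (OG2.1), 8.95 (E5), 9.44 (C1a1), 9.51 (T9), 9.62 (E3) and 10.33 (OG2.2), and 7.33 in R1. All lines lay above R1 (2.09, SE 0.52, adjusted p = 0.0324 by limma), but the call was lost without E3, T9 or C1a1, without background correction and without the detection filter (adjusted p up to 0.0591). Itga6, the alpha subunit of the other main laminin receptors, had its highest level in R1 (9.13, EpiSC 7.14 to 8.54) and did not pass (-1.29, SE 0.44, adjusted p = 0.0891), though it did without E5 (adjusted p = 0.0362). Itga1, a collagen receptor subunit, was above background in T9 alone.

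Among beta subunits, Itgb5, which pairs with alpha v on vitronectin, was at 9.56 to 10.19 in the EpiSC lines and 8.58 in R1 (1.30, SE 0.28, adjusted p = 0.0186 by limma), a call that held in all 13 alternative settings. Itgb7, known from lymphocyte homing, was above background in R1 (6.85), E3 (5.79) and C1a1 (5.55). Its difference of -1.64 (SE 0.44, adjusted p = 0.0409) was not called with the deposited values, without the detection filter, or without OG2.1, OG2.2 or T9 (adjusted p up to 0.121). Itgb1, the partner shared by Itga3, Itga5 and Itga6, was at 6.24 to 6.87 against 6.04 in R1 (0.48, SE 0.28, adjusted p = 0.303), whereas its second probe gave -0.48, so no direction can be given. Itgb4, the hemidesmosome partner of Itga6, was highest in R1 (7.00) and did not pass (-1.06, SE 0.40, adjusted p = 0.118). Its second probe gave -0.94, with limma's adjusted p = 0.0458 over kept probes. Itgav, the alpha v subunit, which the symbol rule left out, was at -0.52 (SE 0.28, adjusted p = 0.279).

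**Figure D3:**
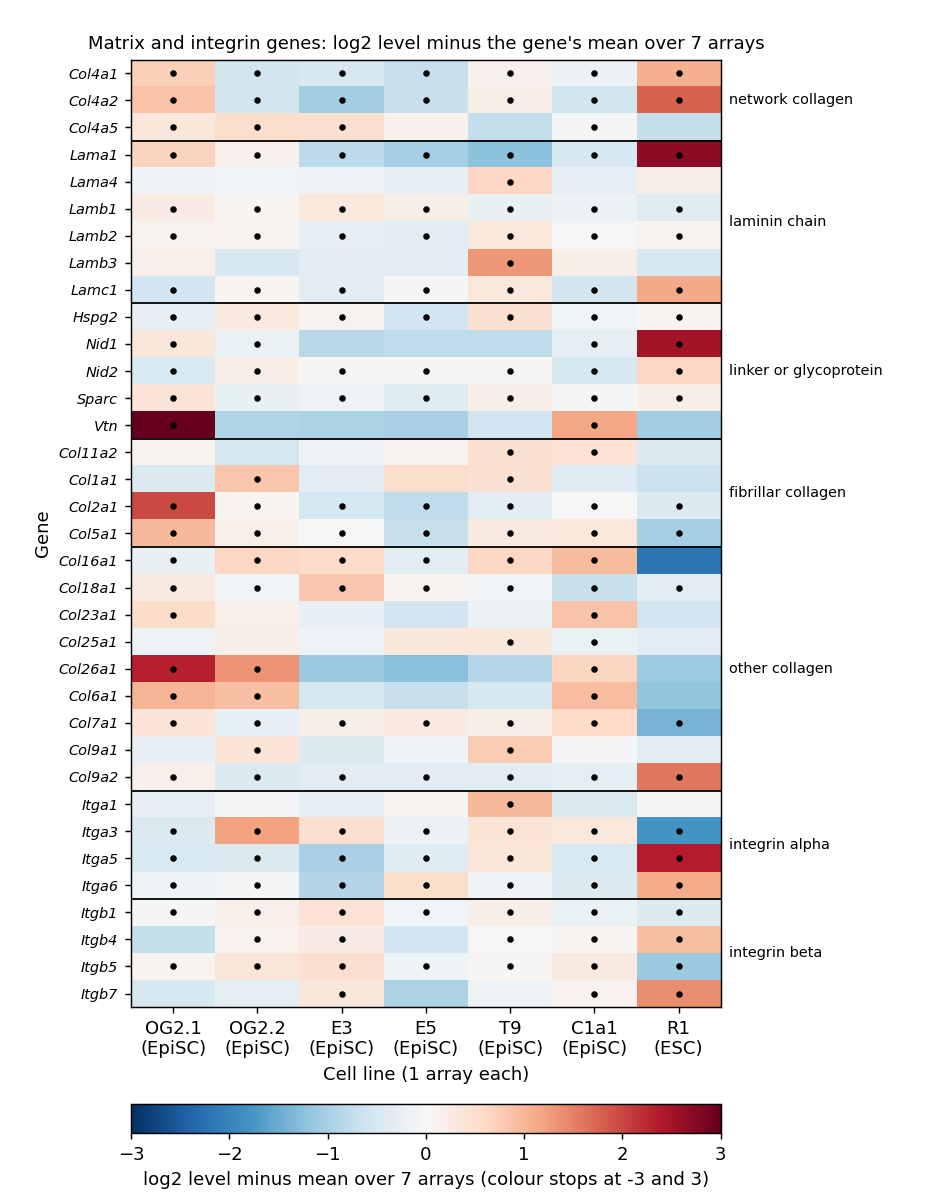
Log2 level of the 35 genes on the 7 arrays, each minus the gene's own mean over the arrays (rows, genes by role; columns, lines; colour, difference from the mean; dots, above background). The R1 column is darkest red at Lama1, Nid1 and Itga5 and darkest blue at Col16a1, and the OG2.1 column is darkest red at Vtn, Col26a1 and Col2a1.

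Genes that build, cut or read the matrix were examined beside the set. Over all genes tested, 7.1% were higher in EpiSCs and 8.11% lower, and the counts of each list stand beside these shares. Genes below background in R1 were kept only through EpiSC arrays, so the counts of higher genes in these lists lean towards EpiSCs by construction. Timp2, Timp3, Mfap2, Thbs2, Ltbp3, Parva and Sdc2, given as higher below, were such genes. Of 18 tested collagen processing genes, 4 were lower and 0 higher. They were Pcolce, an enhancer of procollagen cleavage (-3.44, SE 0.56), Crtap (-2.33, SE 0.35) and P3h1 (-1.34, SE 0.36), partners in prolyl 3-hydroxylation, and the collagen galactosyltransferase Colgalt1 (-1.36, SE 0.23). Pcolce2 was at -1.97 (adjusted p = 0.0676). The list's median was 0.16, or 0 with genes below background in R1 at their bound, and 0.05 over all genes.

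Of 11 matrix proteases and inhibitors, 3 were higher and 1 lower (all genes, 7.1% and 8.11%). Timp2 and Timp3, tissue inhibitors of metalloproteinases, were below background in R1, at least 3.30-fold and 4.40-fold higher in EpiSCs. The gelatinase Mmp2, also a fibroblast marker, was higher by 2.04 (SE 0.55), and Mmp11 was lower at -2.01 (SE 0.42). The list's median was 0.38, or 0 with bounds. The 7 tested fibroblast markers outside the gene set had a summed linear level of 1231 in R1 and 1405 to 3868 in EpiSCs. Besides Mmp2, the EpiSC mean was above R1 for Thy1 (2.54), Dcn (2.30) and Fstl1 (0.37). It was below R1 for Loxl1 (-1.37), Pdgfra (-1.24) and Twist1 (-0.27). The part of these markers in the EpiSC levels was not tested.

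Of 14 other matrix glycoproteins, 3 were higher and 1 lower (all genes, 7.1% and 8.11%), with a median of 0.58, or 0 with bounds. The microfibril protein Mfap2 (at least 7.98-fold), thrombospondin-2, Thbs2 (at least 2.06-fold) and the latent TGF-beta binding protein Ltbp3 (at least 1.24-fold) were below background in R1. Ltbp4, of the same family as Ltbp3, was lower at -2.22 (SE 0.31).

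Inside the cell, 7 of 17 genes of the list of integrin adaptors and further subunits passed, 4 higher and 3 lower (all genes, 15.2% in either direction), with a median of 0.12, or 0 with bounds. Higher were the focal adhesion proteins Zyx (2.81, SE 0.295), Vcl (1.33, SE 0.27) and Ilk (1.03, SE 0.27), and Parva, at least 2.78-fold above R1. Lower were Pxn (-1.52, SE 0.29), Fermt2 (-1.07, SE 0.27) and Lims2, which was above background in R1 alone and at least 1.55-fold lower in EpiSCs. Thus Ilk and its binding partners Parva and Lims2 did not share a direction.

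Of 10 genes listed as other matrix receptors or their cytoskeletal linkers, 3 were higher and 0 lower (all genes, 7.1% and 8.11%). Their median was 0.995, or 0.94 with bounds. Ddr1, a receptor tyrosine kinase that binds collagen, was higher by 3.45 (SE 0.63), the syndecan Sdc2 rose at least 6.47-fold from a level below background, and Plec, a cytoskeletal linker at hemidesmosomes, was higher by 1.10 (SE 0.30). Sdc3 was at 1.28 (SE 0.64, adjusted p = 0.231). Adjusted p-values of the genes given as higher or lower in these 5 lists ran from 6.4e-04 (Zyx) to 0.0490 (Timp3).

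Each EpiSC line was then set against the other 5, with R1 left out. None of the 35 genes passed limma's test over all genes in any line. In OG2.1, 0.0434% of all genes were called, in E3 0.0651%, in T9 0.0109%, in C1a1 0.0651%, and in OG2.2 and E5 0%. At an unadjusted p under 0.05 stood 8 of the 35 genes in OG2.1, 6 in T9, 3 in E5, 1 each in OG2.2 and E3, and 0 in C1a1. The share of the 35 genes was above that of all genes in OG2.1 (22.9% against 5.98%) and T9 (17.1% against 2.18%) and close to it in E5 (8.57% against 8.1%). It was below it in OG2.2 (2.86% against 5.29%), E3 (2.86% against 6.23%) and C1a1 (0% against 6.07%). Of the 6 genes in T9, 3 (Lamb3, Itga1 and Lama4) were kept only because T9 itself was above background, so the T9 share is in part set by the filter. The spread between the lines (SD over 6 lines) had a median of 0.46 over the 35 genes and 0.33 over all genes tested. A line cannot be told apart from its array.

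OG2.1 held the highest level of 11 of the 35 genes among the EpiSC lines, a count not made over all genes. Of its levels, 6 (17.1%) lay at least 1 above the mean of the other lines and none as far below. Over all genes, 6.41% lay that far in either direction. Vtn, vitronectin, a plasma and matrix protein made chiefly by liver, was at 8.81 in OG2.1, 6.69 in C1a1 and below background in OG2.2, E3, E5, T9 and R1 (4.48 to 4.94). OG2.1 was far above all others, with a raw signal of 546.4 against 203.0 in C1a1 and 106.1 to 127.0 on the other arrays. The difference from the other 5 lines was 3.75 (SE 0.79), which did not pass (adjusted p = 0.339 by limma) while C1a1 was among the 5. Without C1a1 the adjusted p was 0.0166, but Vtn was then above background in OG2.1 alone and in the fit only through that array, so this gives no support to a difference.

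Col2a1 was at 9.33 in OG2.1, while the other lines had 6.60 to 7.43. It differed from their mean by 2.29 (SE 0.36, adjusted p = 0.176 by limma). Its second probe was also highest in OG2.1, at 9.75. Col4a2 (1.39, SE 0.42) and Col4a1 (1.07, SE 0.35) were highest in OG2.1, as were Lama1 (1.35, SE 0.49) and Nid1 (0.90, SE 0.33), which in these 4 genes put OG2.1 nearest to R1. For Lamc1, by contrast, OG2.1 was the line farthest from R1 (9.93 against 11.64), and for Nid2 only C1a1 was farther (9.61, OG2.1 9.62, R1 10.71). For the 4, adjusted p-values ran from 0.705 to 0.799. Col5a1 was also highest there (8.85; 0.97, SE 0.40).

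Col26a1, a collagen with EMI domain, and Col6a1, a chain of the microfibrillar collagen VI, divided the EpiSC lines into the same groups. Col26a1 was at 7.99 in OG2.1, 7.01 in OG2.2 and 6.32 in C1a1, and below background in E3, E5 and T9 (4.40 to 4.81). Col6a1 was at 6.51 in OG2.1, 6.39 in OG2.2 and 6.43 in C1a1, and below background in E3, E5 and T9 (4.81 to 5.01). Both were thus above background in the same 3 lines and below it in R1. Nid1 was above background in those 3 lines too, and in R1. None of these genes passed in any line, and the split itself was seen in the data and not tested. Against the other 5 lines, Col26a1 was higher by 2.57 (SE 0.99) in OG2.1 and 1.40 (SE 1.29) in OG2.2. With undetected lines among the other 5 counted at their own levels, it was at least 1.45-fold lower in E3, 1.35-fold in E5 and 1.43-fold in T9.

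**Figure D4:**
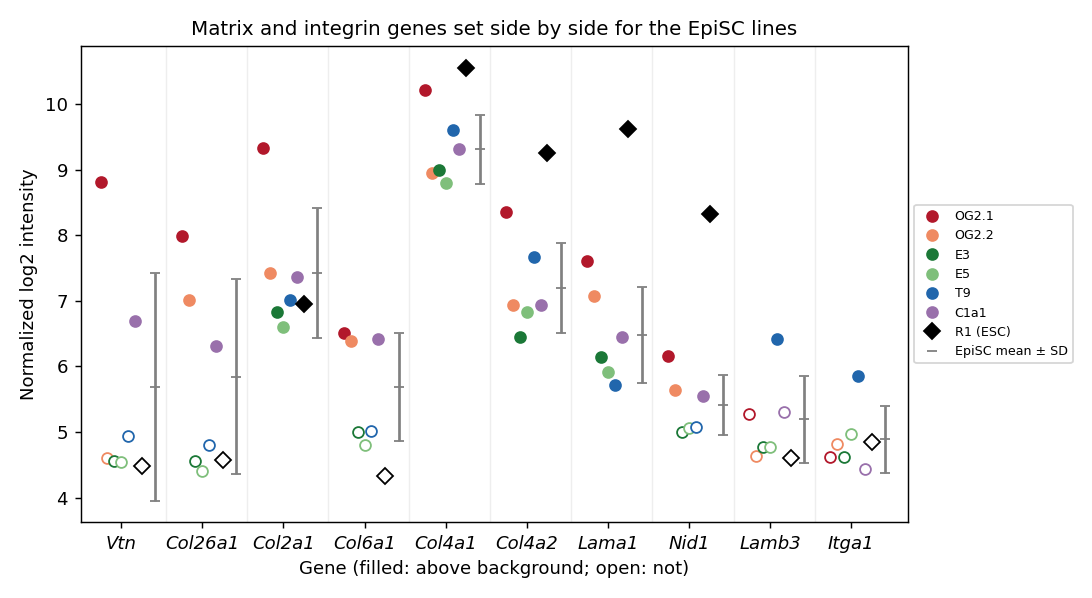
Normalized log2 intensity of 10 genes compared between the EpiSC lines, a point for each line (circles, EpiSC lines; diamond, R1; open symbols, not above background; bars, EpiSC mean ± SD, n = 6). OG2.1 is the top circle for Vtn (8.81), Col26a1, Col2a1, Col6a1, Col4a1, Col4a2, Lama1 and Nid1, and T9 for Lamb3 (6.42) and Itga1 (5.85).

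Marker lists of other cell types did not all single out OG2.1. All 7 tested fibroblast markers outside the gene set were above background there, with a summed linear level of 3868, against 4 to 6 markers and 1405 to 3642 in the other EpiSC lines. E5, whose sum was 3642, had the highest Thy1, Dcn, Loxl1 and Fstl1, and the lowest Col2a1 (6.60) and Col26a1 (4.40) of the lines. Twist1 (7.74) and Pdgfra (5.83) were highest in OG2.1 among the EpiSC lines, and Mmp2 (10.55) in OG2.2. Of the endoderm markers, 5 of 8 were above background in OG2.1 (summed level 1095, other lines 307.0 to 1529). The sum was highest in C1a1, as were Gata6, Sox17, Pth1r and Amn among the EpiSC lines, while Foxa2 was highest in OG2.1 (8.69) and Dab2 in OG2.2 (8.18). The muscle marker Acta2 was at 10.64 in OG2.1 against 7.92 to 9.39 in the other lines. Tagln, the other tested muscle marker, was above background in C1a1 alone (5.42). The globin Hbb-y was above background in OG2.1 alone (8.25). The other tested endothelial and blood markers did not follow, as Tek was highest in E5 (7.88, OG2.1 6.001) and Pecam1 was above background in R1 alone. Col1a2, Col3a1, Lum, Postn, Pdgfrb and Twist2 of the fibroblast list were above background on no array. The same held for Gata4, Plat, Thbd and Afp of the endoderm list. The part of these markers in the OG2.1 levels was not tested.

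T9 was the only array with Lamb3, Lama4 and Itga1 above background. Lamb3 was at 6.42 in T9 and 4.63 to 5.31 in the other lines, at least 1.81-fold higher (fitted difference 1.47, SE 0.35). Itga1 was at 5.85 in T9 and 4.44 to 4.96 elsewhere among EpiSCs, at least 1.22-fold higher (1.16, SE 0.28). Lama4 was at 5.55 in T9, so close to the background limit that no bound above 1-fold could be given. All lay near background, and limma's adjusted p was 1 for each. Col4a5 was lowest in T9 (4.85, a difference of -1.01, SE 0.30), where it was below background and at least 1.24-fold lower. Itga5 was highest there (7.42; 0.91, SE 0.30).

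E5 had the fewest of these genes above background. It held the lowest level of 13 of the 35 among the EpiSC lines, and the highest of 1, Itga6 (8.54). Such counts were not made over all genes, so they are not given as a trait of these genes. Col5a1 was at 7.19 in E5, against 7.86 to 8.85 in the other lines (-1.03, SE 0.38, adjusted p = 0.586 by limma). Vtn and Col6a1 were below background in E5 and at least 1.16-fold and 1.12-fold lower than the mean of the other 5 lines. That mean counts undetected lines at their own levels. Both were below background in E3 and T9 too, so neither was particular to E5. Over all genes, E5 likewise had the fewest above background, 80.2% against 83.2% to 87.5% in the other EpiSC lines.

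The other 3 lines held the highest or lowest level of some genes. OG2.2 held the highest Itga3 (10.33, difference 1.08, SE 0.39) and Col1a1 (5.99, difference 0.86, SE 0.45). Col1a1 was close to that level in E5 (5.70, below background) and T9 (5.62). E3 held the highest Col18a1 (12.65, difference 0.90, SE 0.36) and the lowest Col4a2 (6.45, difference -0.90, SE 0.59). With undetected lines counted at their own levels, Vtn was at least 1.28-fold lower in OG2.2 and 1.27-fold lower in E3 than the mean of the other lines. It was below background in E5 and T9 too, so this was particular to neither line and came from OG2.1 and C1a1. C1a1 held the lowest Col18a1 (11.18; -0.87, SE 0.37) and the highest Col23a1 (5.97; 0.92, SE 0.41). For Col23a1, OG2.1 was close (5.67). Neither Vtn (1.19, SE 1.57) nor Col6a1 (0.88, SE 0.72) was particular to C1a1. Its Vtn lay below that of OG2.1, and its Col6a1 between those of OG2.1 and OG2.2. The Col18a1 order, E3 highest and C1a1 lowest, was the same for all 3 of its kept probes.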

How the data were processed

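Total RNA of 7 mouse lines was labelled with biotin and hybridized to Illumina bead arrays, per the labels. The authors deposited bead-summarised intensity values with no normalization, with a detection p-value of each probe against the negative control beads, per the file headers. They also deposited log2 values, quantile normalized between arrays as their near-identical distributions show. Per the submitters' processing notes, the tools were RMA, lumi and BeadStudio 3.2. How each was set, and in what order, is not given here. The number of arrays limits the precision.

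Intensities were normalized with neqc (limma 3.58.1, R 4.3.3; background inferred from the detection p-values, offset 16, quantile). Of 25697 probes, 13396 reached a detection p under 0.01 on any array and were kept, and 1719 probes had no symbol. The brightest kept probe stood for each of 9213 genes with a symbol in the fits. A gene was above background if any of its kept probes was. Only the p-value given over kept probes came from a fit of all 13396. EpiSC minus ESC (7 arrays) and each line minus the other 5 (6 arrays) were fitted over all genes with limma, 2-sided, with Benjamini-Hochberg adjustment, and tested on simulated data. Where a side was below background throughout, a fold is a lower bound against the lowest normalized level of a detected probe on each array, or the gene's own level if higher. Undetected lines on the brighter side count at their own level, so the bound holds only as far as those levels do. A log2 scale with an offset understates the fold of dim genes. Called members, the largest in each role, line and list, and a fixed panel of main chains are named. Itgav, Col9a1, Col11a2, Col25a1, Lama4 and the undetected genes were named after their values were seen. The members and lists were chosen with earlier results of these data known. Alternatives were the removal of each line, median scaling, the deposited values, a detection limit of 0.05 or none, omitted background correction, averaged probes, and a trended and robust variance.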

Additional observations from a re-analysis of the deposited data

Results flagged for a closer look

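Among the 35 genes, 4 had 1 EpiSC line far from the other 5: its gap to the nearest line, as a share of the whole range, exceeded the critical value of Dixon's test for 6 samples. Chance flags about 1 in 20 groups. Col2a1 was at 9.33 in OG2.1, with OG2.2 nearest at 7.43. Col9a2 was at 7.43 in OG2.1, with C1a1 nearest at 7.00, a small gap in a gene that varied little. Lama4 (5.55) and Itga1 (5.85) stood apart in T9, where alone they were above background. Both were kept only through T9, so their flags follow from the filter and the other 5 values are background.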

How the results depend on the processing

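Of the 10 genes called between cell types, 7 stayed past the threshold in all 13 alternatives (Col16a1, Col7a1, Col9a2, Itga5, Itgb5, Lama1 and Nid1), and Itga3, Itgb7 and Lamc1 did in 8, 8 and 6. All 10 kept their sign. The count of these genes called was 8 to 10 without single EpiSC lines and 7 to 10 under the other settings, and the count over all genes was 1130 to 1436 without single lines. The median difference of the 35 genes, 0.38, was 0.52 with the deposited values, 0.12 without background correction and 0.036 with the mean of a gene's probes. The median of all genes was 0.02 to 0.05 in every setting. Signs turned for Itga1 with the deposited values (-0.0898), without background correction (-0.0072) and without T9 (-0.1567 to 0.1257 over the lines left out), for Itgb1 with the mean of its probes (-0.0022) and for Hspg2 without E5 (-0.1734 to 0.033). None of those values was called. For single lines, the count over all genes changed from 4 in OG2.1, 6 in E3, 1 in T9 and 6 in C1a1 to 1, 1, 0 and 1 with the deposited values. Without background correction it was 1 in OG2.1, 3 in E3 and 3 in C1a1, without the detection filter 12 in OG2.1 and 2 in C1a1, and with the mean of probes 7 in OG2.1. The cause was not tested. Without single other lines the count was 1 to 4 in OG2.1, 0 to 14 in OG2.2, 2 to 3 in E3, 0 to 2 in T9 and 0 in C1a1. The count of the 35 genes called in OG2.1 was 0 to 1, the 1 being Vtn without C1a1, when no other line in the fit was above background. A block for the slide was not run, since the headers give no slide. No paired analysis was possible because each line has 1 array and the replicate numbers only name samples. Genes near background and differences near 1 on the log2 scale lie at the limit of what 7 arrays resolve.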
